A study of Mus musculus with 8 samples.

Results

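The 5 genes described here, *Ly6a*, *Ly6c1*, *Ly6c2*, *Ly6d* and *Ly6e*, encode surface proteins of the Ly6 family. They were chosen by symbol, with earlier results of these data known, from the 34404 gene symbols that had a count in any of the 8 libraries. RNA was sequenced from CD8+ T cells, the cytotoxic lineage of T lymphocytes, taken from the spleen of C57BL/6 mice. The design text gives the animals as Satb1 F/F; E8I-cre, that is, with floxed alleles of *Satb1*, a chromatin organiser of T cells, and a recombinase that acts late in that lineage, in mature cells. Genotype is given by the labels as WT or KO and no further, and whether the WT animals carried the floxed alleles or the recombinase is not given in the sources used here. Each of the 4 groups, WT and KO before culture (day 0) and WT and KO at day 5 of culture, holds 2 libraries; the stimulus in culture is not given by the labels, nor are the age of the animals and whether cells were pooled. Nothing says that libraries of a group came from separate animals or cultures, so p-values measure only the spread between these libraries.

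Ly6 proteins are small extracellular domains folded around a core of disulphide bonds and tethered to the outer membrane leaflet by a glycosylphosphatidylinositol (GPI) lipid anchor instead of a transmembrane segment. Many of their genes lie side by side in a cluster. *Ly6a* encodes stem cell antigen Sca-1, which marks blood-forming progenitors and is induced on activated lymphocytes and by interferons. *Ly6c1* and *Ly6c2* encode the near-identical proteins detected together as Ly6C, used to mark memory CD8 T cells and inflammatory monocytes. *Ly6e* encodes thymic shared antigen, an interferon-inducible protein of thymocytes and of many other cells, and *Ly6d* encodes ThB, a marker of B-lineage progenitors.

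All 5 genes lie on chromosome 15, within 349.9 kb of each other. In GENCODE M21 annotation of GRCm38, the assembly also called mm10, *Ly6d* is at chr15:74762056-74763620, *Ly6e* at chr15:74955051-74959905, *Ly6a* at chr15:74994877-74998031, *Ly6c1* at chr15:75044018-75048830 and *Ly6c2* at chr15:75108158-75111970. *Ly6e* is on the plus strand and the other members are on the minus strand. No member shares exon bases with another annotated gene on either strand. The coding sequences of *Ly6c1* and *Ly6c2* are identical at 387 of 396 bases (97.7%). *Ly6a* is identical to *Ly6c1* at 83.8% and to *Ly6c2* at 83.6% of aligned coding bases, whereas *Ly6d* and *Ly6e* share between 58.8% and 65.4% with any other member.

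The reads were 50 bases long, so whether *Ly6c1* and *Ly6c2* can be told apart depends on where a read falls. The first 50 coding bases are shown because no other stretch of that length holds more differences between *Ly6c1* and *Ly6c2*; they lie within a coding exon of each gene, at chr15:75048462-75048511 for *Ly6c1*, chr15:75111618-75111667 for *Ly6c2* and chr15:74997555-74997604 for *Ly6a*, all on the minus strand. Capitals mark bases that differ between *Ly6c1* and *Ly6c2* and, in *Ly6a*, bases that differ from *Ly6c2*.
Ly6c1: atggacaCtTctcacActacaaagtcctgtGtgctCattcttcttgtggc
Ly6c2: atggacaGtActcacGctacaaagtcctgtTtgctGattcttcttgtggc
Ly6a: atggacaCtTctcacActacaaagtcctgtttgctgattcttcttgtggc
Counted from the first coding base, with the base of *Ly6c1* first, the differences in this stretch are C8G, T10A, A16G, G31T and C36G, and those in the rest of the coding sequence are A65G, G254A, T327C and G376A. In *Ly6a* the first 3 of these positions hold the bases of *Ly6c1* and the next 2 hold the bases of *Ly6c2*. Of the 347 stretches of 50 bases in the coding sequence, 162 (46.7%) are identical in *Ly6c1* and *Ly6c2*, and reads with several alignments were not counted to any gene. Over whole transcripts, the share of 50-base stretches also found in transcripts of another gene was 32.8% for *Ly6c1*, 19.0% for *Ly6a*, 14.5% for *Ly6c2* and 0% for *Ly6d* and *Ly6e*. The levels of *Ly6c1*, *Ly6c2* and *Ly6a* below therefore come from part of their sequence and are uncertain to that extent.

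The sequences upstream of the near-identical pair have diverged more than their coding parts. Promoter windows were held for *Ly6c1* and *Ly6c2* (RefSeq, GRCm38.p6), and the 250 bases before each start are shown because these copies were counted at very different levels. They lie at chr15:75048838-75049087 for *Ly6c1* and chr15:75111972-75112221 for *Ly6c2*, on the minus strand, and 171 of their 210 aligned bases are identical (81.4%). Capitals mark bases that differ or are unaligned.
Ly6c1: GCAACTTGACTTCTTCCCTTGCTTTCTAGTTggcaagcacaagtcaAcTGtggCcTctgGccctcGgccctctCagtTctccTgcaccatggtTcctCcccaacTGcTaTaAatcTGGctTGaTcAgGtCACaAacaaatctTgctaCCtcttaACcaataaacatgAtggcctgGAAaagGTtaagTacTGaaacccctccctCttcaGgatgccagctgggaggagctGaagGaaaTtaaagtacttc
Ly6c2: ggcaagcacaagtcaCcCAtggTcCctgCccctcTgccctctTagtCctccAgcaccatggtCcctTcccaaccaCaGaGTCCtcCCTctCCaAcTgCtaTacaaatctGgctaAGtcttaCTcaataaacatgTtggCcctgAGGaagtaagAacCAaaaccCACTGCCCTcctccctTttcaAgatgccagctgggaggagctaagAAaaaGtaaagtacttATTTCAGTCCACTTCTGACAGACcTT
Each window was searched on both strands for the letters of a STAT site (GAS, TTCNNNGAA), the core of the interferon-stimulated response element (GAAANNGAA) and an AP-1 site (TGANTCA). None of these letters occurred in either window, while 7.18%, 7.16% and 6.87% of the windows of 27025 genes held them. The TATA box letters TATAAA occurred in the window of *Ly6c1* and not in that of *Ly6c2*, and in 13.0% of all windows.

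The libraries held between 4170126 and 11117971 counts in genes, which were 21.2 to 24.5% of the records. Levels are given as CPM, counts normalised to library size with scaling by the trimmed mean of M-values, and as mean ± SD over the 2 libraries of a group. A test of all 12597 genes with enough counts was made in 1 model (edgeR quasi-likelihood), and a gene was called at a Benjamini-Hochberg adjusted p (FDR) under 0.05. Of the 5 members, *Ly6a*, *Ly6c2* and *Ly6e* passed the filter on low counts, and *Ly6c1* and *Ly6d* did not. The 12 T-cell markers summed to between 10727 and 17925 CPM. Of the CD4 T-cell markers, *Cd4* was at most 0.964 CPM and *Zbtb7b* at most 2.47 CPM. Markers of plasma cells, plasmacytoid dendritic cells, natural killer cells and endothelium summed to at most 5.29 CPM in any library, and the 12 myeloid markers to at most 19.2 CPM. Of the 12 B-cell markers, *Ighm* (1392 to 2277 CPM), *Cd79b* (66.7 to 163.9 CPM) and *Ighd* (31.7 to 41.8 CPM at day 0 and 2.29 to 2.94 CPM at day 5) were tested and counted in all libraries, while *Ms4a1*, *Cd79a* and *Pax5* stayed at or below 2.26 CPM.

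*Satb1*, the targeted gene, did not follow the labels at day 0. Before culture it stood at 97.8 and 91.6 CPM in WT and higher, at 144.1 and 124.8 CPM, under the KO label. At day 5 it stood at 96.5 and 115.9 CPM in WT and lower, at 56.5 and 62.3 CPM, under the KO label. The difference was a log2 fold change of 0.51 (SE 0.15, FDR = 0.125) at day 0 and -0.84 (SE 0.15, FDR = 0.0162) at day 5. Counts over the whole gene do not show whether the floxed exons were removed. Directions below are therefore those of the libraries labelled KO and WT.

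**Figure D1:**
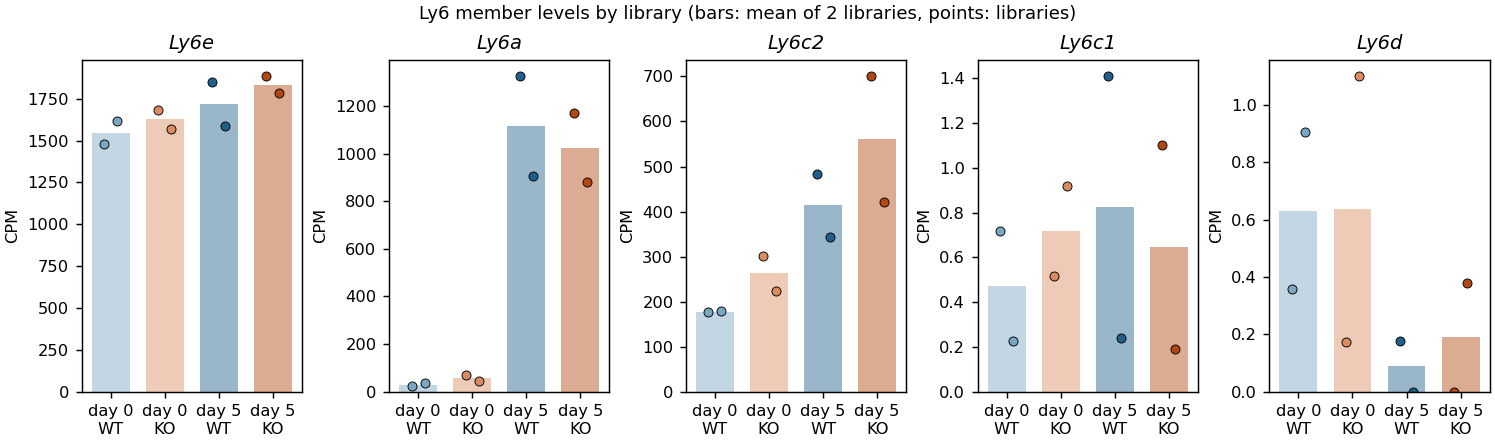
Level of each Ly6 member in CPM (vertical axes, each starting at 0 with its own scale) in the 4 groups; bars are means of 2 libraries and points are libraries. *Ly6e* stood between 1480 and 1887 CPM in all 8 libraries, *Ly6a* rose from at most 68.6 CPM at day 0 to at least 879.3 CPM at day 5, *Ly6c2* rose from at most 301.9 CPM to at least 342.9 CPM, and *Ly6c1* and *Ly6d* never passed 1.41 CPM.

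*Ly6e* was the member with the most counts in every library, and no comparison of it was called. At day 0 it had 1480 and 1616 CPM in WT and 1685 and 1567 CPM in the libraries labelled KO. Day 5 gave 1852 and 1585 CPM in WT and 1887 and 1783 CPM in those labelled KO. It held ranks 49 to 65 among all symbols by CPM in the 8 libraries. The genotypes overlapped at each day, and the days overlapped in WT but not in the libraries labelled KO. The share of all tested genes whose days did not overlap was not counted, here or for the members below. The log2 fold change of day 5 over day 0 was 0.15 in WT (95% interval -0.09 to 0.40, FDR = 0.294) and 0.17 in KO (-0.07 to 0.42, FDR = 0.217). Labelled KO against WT, it was 0.07 at day 0 (-0.17 to 0.32, FDR = 0.855) and 0.09 at day 5 (-0.15 to 0.34, FDR = 0.776). The intervals leave out changes of *Ly6e* above 1.34-fold in any of these comparisons. The small differences took the other sign under other scalings in KO over time (-0.0094 with library totals, -0.082 with an offset for GC content and exon length) and between genotypes at day 5 (-0.12 with that offset). Without replicate 2 of WT at day 5 the change in WT was 0.29 and was called (FDR = 0.0387).

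*Ly6a* rose with culture in both genotypes, from a gene of middling level to one among the most abundant transcripts. In WT it was counted at 22.0 and 35.5 CPM at day 0 and at 1326 and 905.1 CPM at day 5. In the libraries labelled KO it was counted at 68.6 and 44.6 CPM at day 0 and at 1168 and 879.3 CPM at day 5. All 4 libraries of day 5 lay above all 4 of day 0, and how many other genes did the same was not counted. Its rank among all symbols moved from between 2877 and 5703 at day 0 to between 92 and 154 at day 5. The rise was 39.2-fold in WT (95% interval 25.1 to 61.1, log2 fold change 5.29, SE 0.30, FDR = 2.1e-08) and 17.9-fold in KO (95% interval 11.9 to 26.9, log2 fold change 4.16, SE 0.27, FDR = 8.1e-08). Among the 12597 tested genes ordered by log2 fold change it stood at place 289 in WT and 488 in KO.

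*Ly6c2* rose with culture as well, by a smaller factor from a higher start. It was counted at 176.2 and 178.9 CPM in WT at day 0 and at 484.0 and 342.9 CPM in WT at day 5. The libraries labelled KO had 301.9 and 223.7 CPM at day 0 and 701.4 and 421.3 CPM at day 5. Day 5 did not overlap day 0 in either genotype, and the share of all tested genes for which this held was not counted. The rise was 2.33-fold in WT (95% interval 1.65 to 3.30, log2 fold change 1.22, SE 0.23, FDR = 0.000857) and 2.13-fold in KO (95% interval 1.51 to 3.002, log2 fold change 1.09, SE 0.23, FDR = 0.00156). Without replicate 1 of the libraries labelled KO at day 5 the latter log2 fold change was 0.69 and still called (FDR = 0.0272).

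Culture thus gave 2 called members of 3 tested in each genotype, both higher. Of all tested genes, 24.7% were called higher and 23.6% lower in WT, and 26.2% and 24% in KO. The members were chosen with earlier results of these data known, so their count is a description only. In all, 48.3% of tested genes were called with culture in WT and 50.2% in KO, so a call alone does not set *Ly6c2* apart from other genes. Beside these rises, the 3 tested B-cell markers were called lower with culture in each genotype (*Ighm* -0.58 and -0.45, *Cd79b* -0.83 and -0.90 and *Ighd* -3.86 and -3.70 in WT and KO), and their part in the result was not tested. The median log2 fold change over all tested genes was -0.04 in WT and -0.05 in KO. With library totals that median moved by -0.14 in WT and -0.18 in KO, and with the GC and length offset by -0.14 and -0.15. Relative to the median, *Ly6a* was then up by between 5.03 and 5.32 in WT and *Ly6c2* by between 1.11 and 1.25. In KO the ranges were 3.94 to 4.21 for *Ly6a* and 0.97 to 1.14 for *Ly6c2*.

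**Figure D2:**
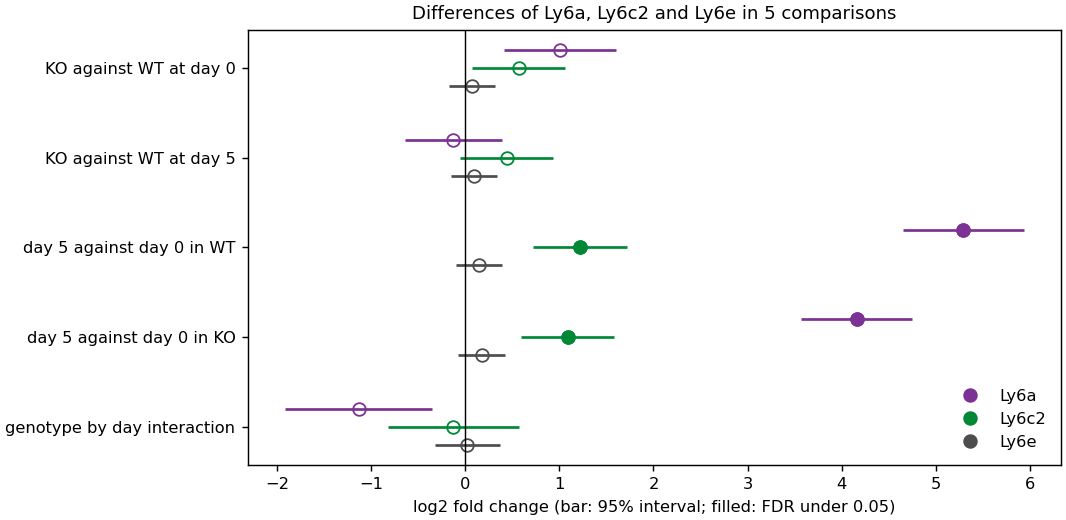
Log2 fold change (horizontal axis) of *Ly6a*, *Ly6c2* and *Ly6e* in the 5 comparisons, with 95% intervals from the edgeR model as bars and filled points where FDR was under 0.05. Only the day 5 against day 0 points of *Ly6a* and *Ly6c2* are filled. Some intervals leave out 0 without passing the adjusted threshold. These are *Ly6a* (0.42 to 1.597) and *Ly6c2* (0.07 to 1.07) between genotypes at day 0, and the *Ly6a* interaction (-1.91 to -0.35).

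Between genotypes, none of the 3 tested members was called at day 0, where 1.8% of all tested genes were called, or at day 5, where 1.63% were. By edgeR 2 of the 3 had an unadjusted p under 0.05 at day 0 (*Ly6a* 0.00287 and *Ly6c2* 0.0281) and 0 at day 5. Over all 12597 tested genes, 1742 had such a p at day 0 and 1775 at day 5. DESeq2 called 0 of the 3 at either day. At day 0 *Ly6a* was 2.01-fold higher in the libraries labelled KO (56.6 ± 17.0 against 28.8 ± 9.55 CPM, SD, n = 2; log2 fold change 1.01, SE 0.27, FDR = 0.0992). The groups did not overlap, which was so for 43.4% of tested genes. The difference was not called, and the value depended on single libraries: it ranged from 0.64 to 1.37 when each of the 4 libraries was left out, and was called without replicate 2 of the libraries labelled KO (1.30, FDR = 0.0377). *Ly6c2* at day 0 was likewise higher without passing (262.8 ± 55.3 against 177.5 ± 1.89 CPM, log2 fold change 0.57, 95% interval 0.07 to 1.07, FDR = 0.285). With no filter on low counts, *Ly6a* (1.05, SE 0.16, FDR = 1.7e-08) and *Ly6c2* (0.61, SE 0.15, FDR = 0.00597) were called at day 0. The log2 fold changes barely moved, and these calls came with smaller SEs than with the filter (0.27 and 0.23).

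At day 5 the *Ly6a* levels of the genotypes overlapped, at 1024 ± 204 CPM in the libraries labelled KO and 1116 ± 298 CPM in WT (log2 fold change -0.12, 95% interval -0.64 to 0.39, FDR = 0.875). *Ly6c2* stood at 561.3 ± 198.1 against 413.4 ± 99.7 CPM (0.44, 95% interval -0.05 to 0.93, FDR = 0.416), and its groups overlapped too. The interaction, the genotype difference at day 5 minus that at day 0, was -1.13 for *Ly6a* (SE 0.36, 95% interval -1.91 to -0.35, unadjusted p = 0.00822, FDR = 0.244). It was -0.13 for *Ly6c2* (FDR = 0.914) and 0.02 for *Ly6e* (FDR = 0.9752). No member was called in the interaction by edgeR or DESeq2, where edgeR called 0.159% of tested genes, except *Ly6a* by edgeR with no filter on low counts (-1.15, FDR = 5.59e-05); the different sizes of the *Ly6a* rise in WT and KO are therefore not shown to differ at the adjusted threshold with the filter in place.

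*Ly6c1*, the near-identical copy, was counted barely at all beside *Ly6c2*. At day 0 it had 4 and 1 counts in WT and 6 and 5 counts in the libraries labelled KO. Day 5 gave 8 and 1 counts in WT and 6 and 1 counts in those labelled KO. As a share of the counts of *Ly6c1* and *Ly6c2* together it made up between 0.0449% (exact binomial 95% interval 0.00114 to 0.250%) and 0.408% (0.133 to 0.951%) in a library, intervals that cover counting error only. Summing the counts of the pair into a single feature changed no call of *Ly6c2*. At day 0 *Ly6d* had 2 and 4 counts in WT and 2 and 6 in the libraries labelled KO. Day 5 gave 1 and 0 counts in WT and 0 and 2 in those labelled KO. A count of 0 allows up to 0.723 CPM in replicate 2 of WT and up to 0.552 CPM in replicate 1 of KO at day 5, as 3 counts in those libraries. With the filter in place no difference of *Ly6c1* or *Ly6d* was tested, and counts this low leave any difference uncertain.

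**Figure D3:**
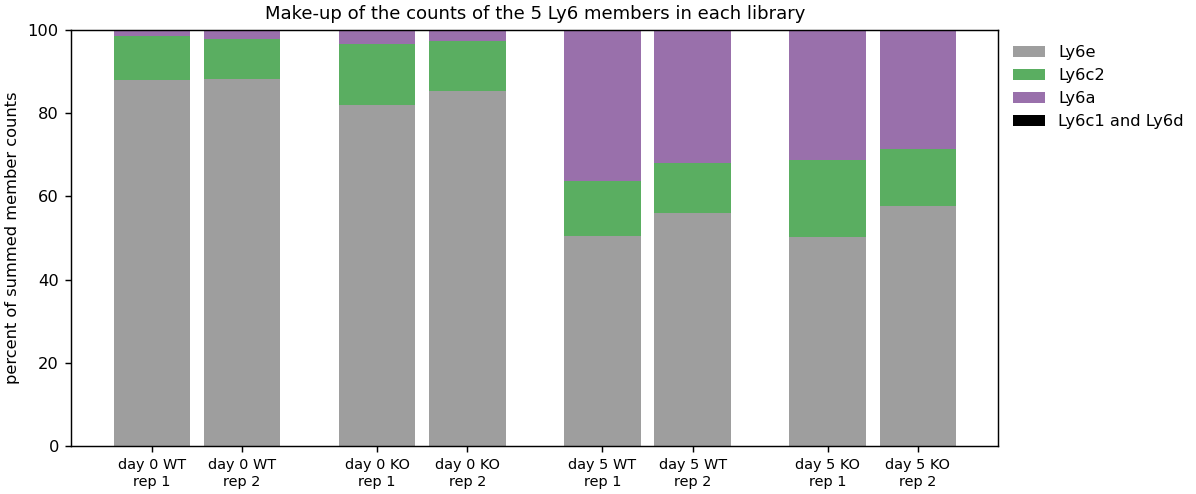
Share of the summed counts of the 5 members held by each member (vertical axis, percent) in each of the 8 libraries. *Ly6a* (purple) took between 1.31 and 3.34% at day 0 and between 28.5 and 36.2% at day 5, and *Ly6e* (grey) fell from between 81.9 and 88.2% to between 50.2 and 57.8%; the share of *Ly6c1* and *Ly6d* is too small to see.

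The make-up of the members' counts turned over with culture. *Ly6e* held between 81.9 and 88.2% of the counts of the 5 members in the 4 libraries of day 0 and between 50.2 and 57.8% in those of day 5. *Ly6a* went from between 1.31 and 3.34% to between 28.5 and 36.2%. *Ly6c2* held between 9.77 and 14.7% at day 0 and between 12.1 and 18.7% at day 5. The summed level of the members was between 1679 and 2056 CPM at day 0 and between 2833 and 3758 CPM at day 5. In bulk samples, more cells with a transcript and more of it per cell cannot be told apart.

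Levels of different genes were compared per kilobase of exon. In WT at day 0 the order was *Ly6e* (409.0 ± 25.4 CPM per kilobase), *Ly6c2* (64.8 ± 0.689) and *Ly6a* (23.9 ± 7.92), with no overlap between neighbours. In the libraries labelled KO at day 0 the order was *Ly6e* (429.8 ± 22.1), *Ly6c2* (95.9 ± 20.2) and *Ly6a* (47.0 ± 14.1). At day 5 *Ly6a* stood first, at 925.9 ± 247.2 CPM per kilobase in WT and 849.6 ± 169.5 in KO. *Ly6e* stood second, at 454.2 ± 49.9 and 484.9 ± 19.5. *Ly6c2* came last of the 3, at 150.9 ± 36.4 and 204.9 ± 72.3, and neighbours in this order did not overlap in either genotype. *Ly6c1* and *Ly6d* stayed at or below 1.48 CPM per kilobase in every library, and their order cannot be told at these counts. *Ly6a*, *Ly6c2* and *Ly6e* kept their order in the group means with the length of a single transcript of each in place of all exons. WT at day 5 then gave 1362 for *Ly6a*, 753.4 for *Ly6e* and 503.0 for *Ly6c2*. The libraries labelled KO at day 5 gave 1250 for *Ly6a*, 804.4 ± 32.3 for *Ly6e* and 682.9 ± 240.9 for *Ly6c2*. There *Ly6e* and *Ly6c2* were not separated beyond their SDs.

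Other genes of the Ly6 and urokinase receptor family were mostly near 0. Of 34 listed symbols of this family in the data, 23 never passed 3 counts in a library and 6 were tested. The list leaves out *I830127L07Rik*, described below, which RefSeq names *Ly6a2* and which was called higher with culture in each genotype. Of the 6 listed and tested, 2 were called higher and 2 lower with culture in each genotype. Over all tested genes, 48.3% were called in WT and 50.2% in KO. In KO, 1 was called higher with library totals and with the GC and length offset, and DESeq2 called 3 in all. None was called between genotypes by edgeR or DESeq2. An unadjusted edgeR p under 0.05 was found for 1 at day 0 and 0 at day 5. Over all 12597 tested genes it was found for 1742 and 1775. *Ly6g5b*, a family member in the major histocompatibility region, rose from 1.76 ± 0.713 to 24.4 ± 5.89 CPM in WT (log2 fold change 3.83, FDR = 3.19e-06) and from 2.54 ± 0.560 to 29.0 ± 6.13 CPM in KO (3.55). *Plaur*, the urokinase receptor, fell from 11.2 ± 1.82 to 1.70 ± 0.661 CPM in WT (-2.76) and from 13.0 ± 0.244 to 0.744 ± 0.249 CPM in KO (-4.09). *Lypd6b* fell by 2.39 on the log2 scale in WT and by 2.41 in KO. *Ly6g*, the granulocyte antigen Ly6G, had at most 15 counts in a library and none at day 5.

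The chromosome 15 neighbours were examined within 500 kb of the members. That window held 51 symbols, of which 6 beside the members were tested. Of these neighbours, *2010109I03Rik*, *Ly6k* and *Lynx1* were also counted among the listed family genes above, so the sets overlap. Over all tested genes, 24.7% were called higher with culture in WT and 26.2% in KO. Among the 6 neighbours, 2 were called higher with culture in each genotype and none was called lower or between genotypes. Both were low and are named after their values were seen. *I830127L07Rik*, which RefSeq names *Ly6a2*, at chr15:75131377-75135128 in the GENCODE annotation, shares 50-base stretches with *Ly6a*. At day 0 it had 0 and 0 counts in WT and 1 and 0 in the libraries labelled KO. Day 5 gave 28 and 9 counts in WT and 25 and 19 in those labelled KO. *2010109I03Rik*, which RefSeq names *Ly6m*, at chr15:74876987-74897021, had at day 0 no counts in WT and 14 and 6 in the libraries labelled KO, and 18 and 4 against 21 and 19 at day 5. Its call in KO was lost with library totals, with the GC and length offset and with DESeq2. *Ly6k*, the tested neighbour with the most counts, was at 17.7 ± 7.11 CPM in WT at day 0 and 10.9 ± 6.54 CPM at day 5, which overlapped (FDR = 0.323).

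**Figure D4:**
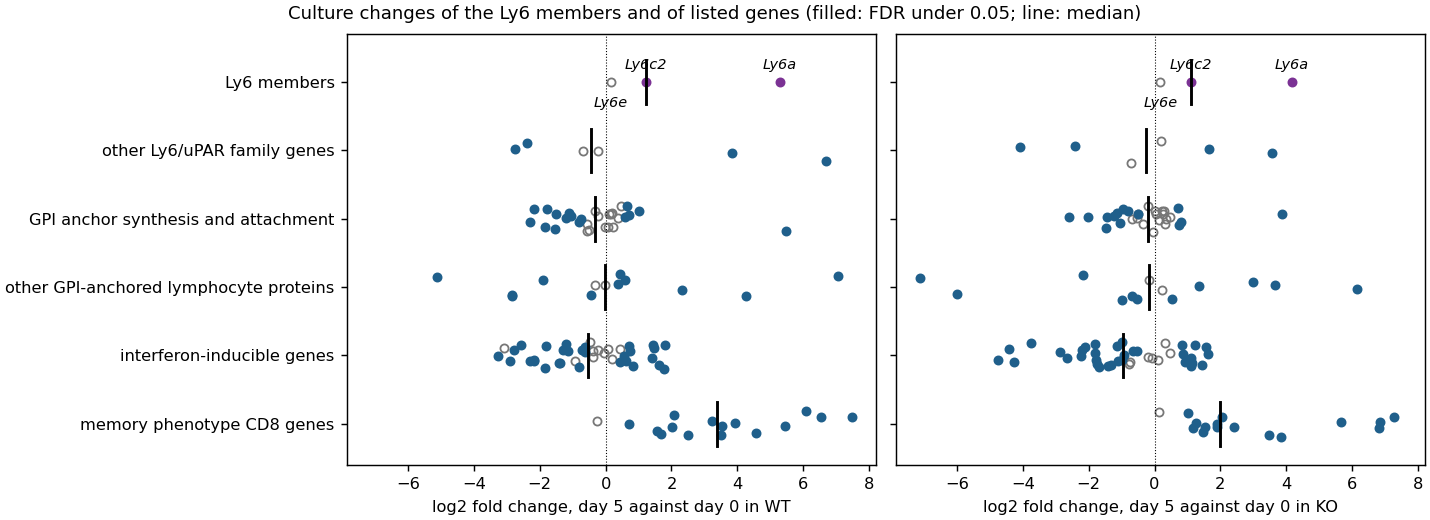
Log2 fold change of day 5 over day 0 (horizontal axes; WT left, KO right) for the 3 tested members and the tested genes of 5 other lists; filled points have FDR under 0.05, vertical bars are list medians, and the points of genes with few or no counts at either day, such as the 1 farthest right among the other Ly6 genes in WT, depend on the prior count. *Ly6a* lies within the range of the memory phenotype genes (median 3.37 in WT and 1.98 in KO). The interferon-inducible genes have medians of -0.54 and -0.95 and lie on either side of 0. Of these, 12 were called higher and 18 lower in WT, and 10 and 23 in KO. A link of *Ly6a* to either list was not tested.

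*Ly6a* and *Ly6e* are known as interferon-inducible genes, and the other interferon-inducible genes of a list changed in either direction with culture. Of the 40 tested, 12 were called higher and 18 lower in WT (median log2 fold change -0.54), and 10 higher and 23 lower in KO (median -0.95). Over all tested genes, 24.7% were called higher and 23.6% lower in WT, and 26.2% and 24% in KO. More of the 40 were called lower than higher under each of the 3 other scalings. *Ifit1*, an RNA-binding antiviral effector, fell from 238.5 ± 52.5 to 31.0 ± 28.8 CPM in WT (-2.90, FDR = 0.000239) and from 284.4 ± 80.7 to 21.3 ± 7.09 CPM in KO (-3.74). *Ifit3* of the same family fell as well (log2 fold change -2.79 in WT and -4.41 in KO), and *Ddx60*, a helicase of antiviral sensing, fell by 2.30 in WT. Among those called higher in both genotypes, named after their values were seen, were *Gbp3*, a guanylate-binding protein (1.80 in WT and 1.63 in KO), *Isg20*, an exonuclease (1.76 and 1.57), and *Igtp*, an interferon-induced GTPase (1.62 and 1.21). Between genotypes at day 0 none of the 40 was called by edgeR or DESeq2, and the median was 0.20. An unadjusted edgeR p under 0.05 was found for 7 of the 40 and for 1742 of all 12597 tested genes. Day 5 gave 1 of the 40 called higher and 1 lower, where 1.63% of all tested genes were called. At day 5 *Stat2*, part of the type I interferon signal transducer, was higher in the libraries labelled KO (61.1 ± 9.69 against 31.6 ± 2.31 CPM, 0.95, FDR = 0.0172) and *Irgm1*, an interferon-induced GTPase, lower (135.2 ± 25.5 against 240.7 ± 18.0 CPM, -0.83, FDR = 0.0489). With the GC and length offset neither of the pair was called.

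Of 9 receptors and kinases of interferon signalling and related cytokines, 1 was called higher and 5 lower with culture in WT and 1 and 3 in KO. Over all tested genes, 48.3% were called with culture in WT and 50.2% in KO. Between genotypes, 1.8% of all tested genes were called at day 0 and 1.63% at day 5, and 1 of the 9 was called. This was *Ifngr1*, the ligand-binding chain of the interferon gamma receptor, at day 0, with 1239 ± 159 CPM in the libraries labelled KO against 518.6 ± 60.6 CPM in WT (log2 fold change 1.26, FDR = 0.000279). With culture it rose by 1.77 on the log2 scale in WT and 0.81 in KO. *Jak1*, the kinase shared by the interferon receptors, went from 761.4 ± 86.5 to 304.5 ± 2.61 CPM in WT (-1.32). *Il27ra* (-2.33 in WT and -1.79 in KO) and *Il6st* (-3.21 and -3.29), subunits of receptors for interleukins, fell with culture as well.

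Ly6C is used as a marker of memory CD8 T cells, and the other memory phenotype genes of the list rose together with *Ly6c2* and *Ly6a* in culture. Of 16 tested, 15 were called higher and none lower in each genotype, with medians of 3.37 in WT and 1.98 in KO. Over all tested genes, 24.7% were called higher in WT and 26.2% in KO. With library totals or the offset, 15 of the 16 were still called higher in each. *Ctsw*, a cathepsin of cytotoxic cells, was called lower with either in WT and with the offset in KO. *Fasl*, the death ligand of cytotoxic cells, rose from 2.49 ± 2.56 to 475.3 ± 66.9 CPM in WT (7.47, FDR = 3.09e-09). *Ccr2* (6.55 in WT and 6.84 in KO), a chemokine receptor of effector cells, rose from group means below 3 CPM. *Cd44*, the hyaluronan receptor of activated T cells, rose from 7.18 ± 0.0346 to 102.0 ± 15.02 CPM in KO (3.82). Between genotypes at day 0, 2 of the 16 were called, both higher in the libraries labelled KO. There 10 of the 16 had a positive log2 fold change and the median was 0.24. At day 5, 1 of the 16 was called, higher as well. The shares of all tested genes called were 1.8% at day 0 and 1.63% at day 5. *Ccl5*, a chemokine stored by memory CD8 cells, was at 95.6 ± 37.9 CPM in the libraries labelled KO against 13.6 ± 3.84 CPM in WT (2.78, FDR = 0.004). *Il2rb*, the interleukin-2 and interleukin-15 receptor beta chain, was at 211.0 ± 23.8 against 98.8 ± 5.71 CPM at day 0 (1.10, FDR = 0.00116) and at 509.4 ± 26.1 against 291.4 ± 31.4 CPM at day 5 (0.81, FDR = 0.00989); the latter was not called with the GC and length offset. Whether the share of memory cells differed between the libraries was not tested.

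All members need the GPI anchor pathway to reach the surface. Of its 29 tested genes, 5 were called higher and 11 lower with culture in WT and 4 and 10 in KO. Over all tested genes, 48.3% were called in WT and 50.2% in KO, so being called does not set the pathway apart. The medians were -0.32 and -0.19, and more were called lower than higher under each other scaling. *Pgap1*, which remodels the anchor lipid after attachment, fell from 24.4 ± 4.17 to 5.04 ± 1.39 CPM in WT (-2.29, FDR = 4.32e-05) and by 2.59 on the log2 scale in KO. *Pigt*, a subunit of the transamidase that attaches the anchor, fell by 2.16 in WT, and *Pigo*, which adds ethanolamine phosphate, fell by 1.77. *Pigz*, a mannosyltransferase, was at 0.381 ± 0.220 CPM in WT at day 0 and 18.8 ± 1.36 CPM at day 5. Between genotypes, none of the 29 was called at day 0 by edgeR or DESeq2. An unadjusted edgeR p under 0.05 was found there for 3 of the 29 and for 1742 of all 12597 tested genes. Day 5 gave 1 of the 29 called, where 1.63% of all tested genes were called. *Pigs*, also of the transamidase, was called at day 5 (135.0 ± 5.40 against 88.4 ± 7.73 CPM, 0.61, FDR = 0.0489), though not with the GC and length offset.

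Other GPI-anchored proteins of lymphocytes changed in either direction. Of 13 tested, 6 were called higher and 5 lower with culture in WT and 5 and 6 in KO. Over all tested genes, 24.7% were called higher and 23.6% lower in WT, and 26.2% and 24% in KO. With library totals the 13 gave 4 higher and 6 lower in WT and 4 and 7 in KO. *Art2b*, an ADP-ribosyltransferase of resting T cells, fell from 172.4 ± 4.29 to 4.93 ± 0.504 CPM in WT (-5.11, FDR = 5.18e-10) and from 79.5 ± 1.02 to 1.21 ± 0.107 CPM in KO (-6.01). *Cd55*, the complement decay-accelerating factor, fell by 2.83 in WT and by 2.17 in KO on the log2 scale. *Prnp*, the prion protein, was at 0.226 ± 0.320 CPM in WT at day 0 and 29.6 ± 0.00641 CPM at day 5. Between genotypes, 1 of the 13 was called higher and 2 lower at day 0, and 2 higher and 1 lower at day 5. The shares of all tested genes called were 1.8% and 1.63%. At day 0 *Cd48*, a ligand of the SLAM family, was higher in the libraries labelled KO (566.1 ± 80.7 against 310.3 ± 26.3 CPM, 0.87, FDR = 0.00665), and *Art2b* (-1.12, FDR = 0.0012) and *Izumo1r*, the folate receptor FR4 (-1.02, FDR = 0.0076), were lower. At day 5 *Cd160* (0.92, FDR = 0.0142) and *Cd55* (0.90, FDR = 0.0416) were higher and *Art2b* was lower in the libraries labelled KO; *Cd55* was not called with library totals.

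Likeness of pattern was measured over the 8 libraries as Pearson's r of log2 CPM among 8003 genes with a mean of at least 10 CPM, as a description; the libraries are shared between all genes. Most like *Ly6a* were *Scd2* (r = 0.996), a desaturase of fatty acid synthesis, *Gbp11* (0.995), a guanylate-binding protein, and *Crem* (0.995), a cAMP-responsive transcription factor. *Gbp11* was at 14.3 CPM in WT and 25.7 CPM in KO at day 0, and at 139.9 and 132.1 CPM at day 5. Most like *Ly6c2* were *Cog5* (0.972), *Efhd2* (0.968) and *AU020206* (0.962), and most like *Ly6e* were *Ddost* (0.953), *Cand1* (0.951) and *Mrps23* (0.947). Between members, r was 0.909 for *Ly6a* and *Ly6c2*, 0.896 for *Ly6c2* and *Ly6e* and 0.774 for *Ly6a* and *Ly6e*. How common such values were among the 8003 genes was not counted. Culture alone gave calls for 48.3% of tested genes in WT and 50.2% in KO, so these values do not set the members apart.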

How the data were processed

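Raw counts by gene symbol, followed by the counter's own summary, were deposited by the authors for every library. Per the submitters' processing notes, the tools were HISAT2 2.1.0 and HTSeq 0.11.1 and the build mm10 (GRCm38); the annotation and strand setting are not given in the sources used here. Lines that name no gene stayed out of library sizes and tests; of all records, 31.8 to 37.4% were multi-aligned, 27.5 to 33.7% fell in no feature and 0.466 to 0.571% were ambiguous. Per the labels, sorted cells were extracted with Trizol and a Direct-zol kit, libraries were made with an NEBNext Ultra RNA kit, and reads were 50 bases long.

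All 8 libraries entered 1 quasi-likelihood fit (edgeR 4.0.16, R 4.3.3) with a mean per group, TMM factors and the default filter (minimum count 10), keeping 12597 genes, with a common biological coefficient of variation of 14.95%. P-values were two-sided. SEs and 95% intervals came from this model. Alternatives were DESeq2 size factors, library totals, no filter, a floor of 5 CPM in 2 libraries, the compared libraries alone, a replicate block, the newer edgeR form, DESeq2 1.42.0, a GC and exon length offset (loess, span 0.3, known for 96.9% of tested genes), thinning to the smallest total, the summed Ly6c pair, and leaving out each library. Replicate counts differed by more than sampling noise in every group.

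Symbols were matched to GENCODE M21 (46394 of 48321). The members and gene lists were chosen with earlier results of these data known. Besides the members and *Satb1*, genes were named by rule: per list or neighbourhood and comparison, up to 4 called genes with the largest change whose higher group averaged 10 CPM or more, and the 3 genes most like each member; other genes named were chosen after their values were seen. Not every eligible gene is described, and some listed genes that are included in the counts are not reported here.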

Additional observations from a re-analysis of the deposited data

Results flagged for a closer look

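*Satb1*, the targeted gene, differed between the days in its genotype difference: the difference between the libraries labelled KO and WT was 1.34 lower at day 5 than at day 0 on the log2 scale (interaction -1.34, SE 0.21, FDR = 0.0269, edgeR). At day 0 both libraries labelled KO lay above both of WT, and at day 5 both lay below. No Ly6 member was called in that interaction, except *Ly6a* with no filter on low counts (-1.15).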

How the results depend on the processing

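The rises of *Ly6a* and *Ly6c2* with culture kept their direction and stayed called in each genotype under every alternative run and without each library in turn. *Ly6a* ranged over the alternatives from 4.85 to 5.33 in WT and from 3.75 to 4.21 in KO on the log2 scale, and *Ly6c2* from 0.93 to 1.26 and from 0.77 to 1.13.

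With no filter on low counts, 434 genes were called between genotypes at day 0, 418 at day 5 and 154 in the interaction, against 227, 205 and 20, and *Ly6a* (1.05) and *Ly6c2* (0.61) at day 0 and the *Ly6a* interaction (-1.15) passed the threshold. DESeq2 called 335 at day 5 and 139 in the interaction. With the GC and length offset 119 were called at day 5 and 13 in the interaction, and *Ly6e* took the other sign at day 5 (-0.12), in KO over time (-0.082) and in the interaction (-0.25). With library totals *Ly6e* took the other sign in KO over time (-0.0094) and in the interaction (-0.022), and 2755 genes were called higher and 3936 lower in KO over time, against 3296 and 3029. Thinned libraries gave 37 calls in the interaction. The causes were not tested.

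Leaving out each library in turn gave 38 to 200 calls at day 0 (38 and 49 without WT day 0 replicate 1 and 2), 32 to 185 at day 5 (84 without WT day 5 replicate 2, 54 and 32 without KO day 5 replicate 1 and 2) and 0 to 41 in the interaction (0 without WT day 0 replicate 1, where 1413 had an unadjusted p under 0.05, 1 without WT day 0 replicate 2, 3 and 4 without KO day 5 replicate 1 and 2, and 41 without WT day 5 replicate 1). At day 0 *Ly6a* ranged from 0.64 to 1.37, *Ly6c2* from 0.33 to 0.80 and *Ly6e* from 0.01 to 0.16, and *Ly6a* passed without replicate 2 of KO (1.30). At day 5 *Ly6a* ranged from -0.37 to 0.19, *Ly6c2* from 0.03 to 0.76 and *Ly6e* from -0.013 to 0.22. Over time in WT, *Ly6a* ranged from 4.98 to 5.67, *Ly6c2* from 0.97 to 1.48 and *Ly6e* from 0.058 to 0.29. Over time in KO, they ranged from 3.90 to 4.53, 0.69 to 1.42 and 0.12 to 0.24. The interactions ranged from -1.50 to -0.77 for *Ly6a*, -0.54 to 0.19 for *Ly6c2* and -0.11 to 0.14 for *Ly6e*. Where a group was left with 1 library, that library was assumed to vary like the other groups.

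Libraries of different groups share only a replicate number. Same-numbered deviations correlated at 0.12 between the days in WT and 0.23 in KO, and between -0.07 and 0.004 across genotypes. The block below used the same number in both genotypes, so a pairing of days within a genotype was not tested. With the replicate number as a block, 216 genes were called at day 0, 215 at day 5 and 29 in the interaction, and no call of a member changed. *Ly6c1* and *Ly6d* had too few counts to compare at this depth.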
